A study of Mus musculus with 4 samples.

Results

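Genes for the receptors of fast neurotransmitters and for the metabotropic glutamate receptors were examined for Eya1 occupancy in embryonic kidney. The 69 genes were chosen by symbol among the 21938 protein-coding genes of GENCODE M21 on the assembled nuclear chromosomes (mm10). They comprised the AMPA (Gria), kainate (Grik), delta (Grid), NMDA (Grin), GABA-A (Gabr), glycine (Glra and Glrb), nicotinic acetylcholine (Chrn), ionotropic serotonin (Htr3) and metabotropic glutamate (Grm) receptor genes, and 1 gene that the symbol rule also took in, whose product binds a receptor and is not one. The ChIP-seq used 2 Eya1 replicates, each of 80 kidneys pooled from E13.5 mouse embryos of mixed strain background. All of these embryos carried the Eya1 HA-FLAG knockin allele, the tagged protein was isolated with anti-FLAG beads, and a ChIP from untagged kidneys was not analysed here. Whole kidneys were used, so a peak is not assigned to a cell type, and the kidney label cannot be checked against markers in files that hold peak positions only. Peaks had a median width of 1069 bp in the replicate 1 list and 188 bp in the replicate 2 list. They were merged where they overlapped by at least 1 bp into 5493 intervals, of which 44.1% held peaks of both lists. They carry no peak height, count or p-value, so depth is unknown, and a gene without a peak is a gene without a listed peak. The authors called peaks against input or IgG, and no control sample was used here beyond those calls.

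Ionotropic receptors are ion channels built from several subunits that open when a transmitter binds. Those for glutamate, acetylcholine and serotonin pass cations and excite the cell, and those for GABA and glycine pass chloride and in most mature neurons inhibit it. Metabotropic glutamate receptors instead signal through G proteins. Outside neurons many of these genes are held silent by REST (also called NRSF), a zinc-finger repressor that binds a recognition sequence named RE1 and recruits corepressors with histone deacetylase and demethylase activity.

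RE1 was searched on both strands as a 17-bp consensus with at most 2 mismatches. In 200-bp windows on the midpoints of merged peaks, 8 receptor genes had RE1 (11.6% of 69, exact Clopper-Pearson 95% interval 5.14 to 21.6%), compared with 1.74% of all protein-coding genes and 3.29% of genes of the same length deciles. This count rested on replicate 2, since 2 genes had RE1 in the window without it, and 11 had it without replicate 1. The midpoints of wide merged peaks can miss an element, so whole intervals were also read. A merged Eya1 peak covered an RE1 element in 12 receptor genes (17.4%, 95% interval 9.32 to 28.4%), compared with 4.33% of all protein-coding genes. Genes of the same length deciles reached 6.41% and the 100 genes nearest in length to each receptor gene 8.06%. The receptor genes gained over the 200-bp windows were Grin1, Grin2d, Gabrd and Chrnb2. In whole peaks of 1 list, RE1 was present at 6 receptor genes in replicate 1 and 11 in replicate 2. Each of the 12 elements had 0 or 1 mismatch. When the limit was set at 1 mismatch the receptor count was still 12, whereas the share of all protein-coding genes was 1.4%. At that limit the length deciles gave 2.7% and the 100 nearest genes 3.75%. The elements of 9 of these 12 genes are shown as examples of RE1 under a merged peak. They read 5′ to 3′ on the strand of the element. The 17 searched positions are in capitals and 6 further bases on each side in lower case.
Grin1: atacgcTTCAGCACCTCGGACAGcacccg
Chrnb2: cgcggcTTCAGCACCACGGACAGcgctcc
Glra1: tgcaggTTCAGCACCACGGAGAGcgtcca
Gria2: ttcgatTTTAGCACCGCGGACAGcgcttt
Grm4: ccaggcTTCAGCACCTCGGAGAGcggcac
Gabrd: gcagcgTTCAGCACCGAGGACGGcggaca
Grid1: aggcagGTCAGCACCTCGGACAGcgccac
Grik3: tcagatATCAGCACCTCGGAGAGctcccc
Grin2d: ctaacaTGCAGCGCCTGGGCCAGccggct
The first 5 had 0 mismatches. Of the others, Grid1 and Grik3 differed from the consensus at position 1, Grin2d at position 2 and Gabrd at position 16, counted from the 5′ end of the capitals.

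The share of receptor genes with any Eya1 peak was close to that of all protein-coding genes and below that of genes of like length, though the interval of the receptor share held both. A merged interval lay within 1 kb of an annotated transcription start site (TSS) of 11 receptor genes (15.9%, 95% interval 8.24 to 26.7%), compared with 23.5% of all protein-coding genes. Receptor genes are long, with a median of 62.5 kb against 17.4 kb for all protein-coding genes. Protein-coding genes of the same length deciles had a TSS peak in 27.9% of cases, and the 100 genes nearest in length to each receptor gene in 27.7%. Elsewhere in the gene body, a peak was found in 5 receptor genes (7.25%, 95% interval 2.39 to 16.1%), compared with 1.81% of all protein-coding genes. Genes of the same length deciles reached 3.83% and the 100 nearest in length 4.93%, and both of these lay within the interval of the receptor genes. Of the 5, 4 had a peak more than 1 kb from the TSS of any gene (5.8%, 95% interval 1.6 to 14.2%), compared with 1.18% of all genes. The length deciles gave 2.81% and the 100 nearest genes 4.06%, both within the interval. No gene had peaks in both places, so 16 genes had a peak (23.2%, 95% interval 13.9 to 34.9%), compared with 24.9% of all protein-coding genes, 31% of the same length deciles and 31.7% of the 100 nearest in length. Without replicate 2 the counts were 6 near a TSS, 2 in the gene body and 8 in all.

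The peaks of receptor genes were divided by RE1 content. A TSS peak without RE1 was present at 3 receptor genes (4.35%, 95% interval 0.906 to 12.2%), compared with 20.3% of all protein-coding genes and 24.2% of those in the same length deciles. A TSS peak with RE1 was present at 8 (11.6%, 95% interval 5.14 to 21.6%), compared with 3.38% of all and 4.1% of the same length deciles. In the gene body, 4 receptor genes had a peak with RE1 (5.8%, 95% interval 1.6 to 14.2%), compared with 0.994% of all protein-coding genes. The length deciles gave 2.45% and the 100 nearest genes 3.45%, both within that interval. By interval, 12 of the 16 at receptor genes held RE1, compared with 17.4% of the 5079 intervals at protein-coding genes. Near a TSS this was 8 of 11, compared with 13.8% of all such intervals. In the gene body it was 4 of 5, compared with 54%, so RE1 was common in gene-body intervals of protein-coding genes at large. These shares are counts of genes in the same pair of lists. The intervals cover counting error only, and no test was run because genes are not replicates.

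**Figure D1:**
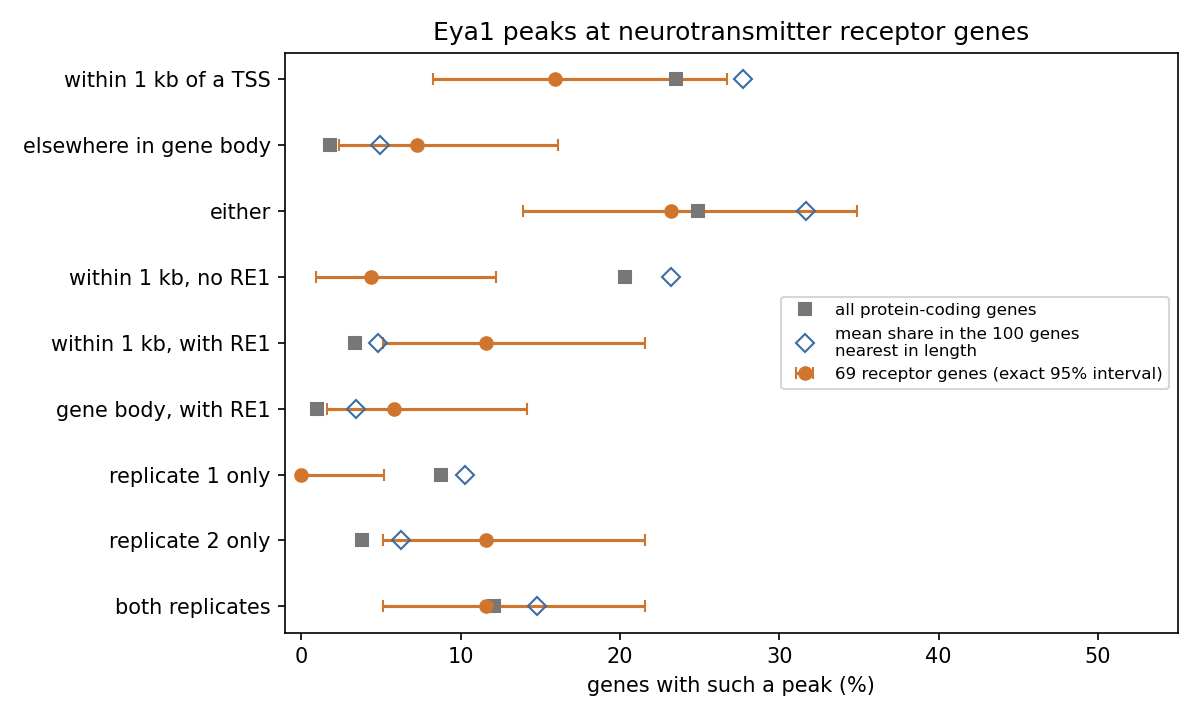
Share of genes (x axis, %) with an Eya1 peak of each kind (rows). Circles with bars are the 69 receptor genes with exact 95% intervals, squares are all protein-coding genes and diamonds the mean share in the 100 genes nearest in length. The circle for TSS peaks without RE1 (4.35%) stands left of both backgrounds, and that for TSS peaks with RE1 (11.6%) stands right of both.

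In 5 of the 9 receptor subfamilies, every merged interval that was found covered RE1. These were AMPA, delta, NMDA, GABA-A and glycine receptors, and among the NMDA genes the replicate 2 peak of Grin2d did not itself reach the element. The NMDA receptor genes had peaks at 2 of 7, the GABA-A genes at 3 of 19, the glycine genes at 1 of 5, the AMPA genes at 1 of 4 and the delta genes at 1 of 3. The kainate genes had peaks at 3 of 5, of which 1 held RE1. The metabotropic genes had peaks at 3 of 8, of which 2 held RE1, and the nicotinic genes at 2 of 16, of which 1 held RE1. The 2 Htr3 genes had neither a peak nor an RE1 element of at most 1 mismatch.

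**Figure D2:**
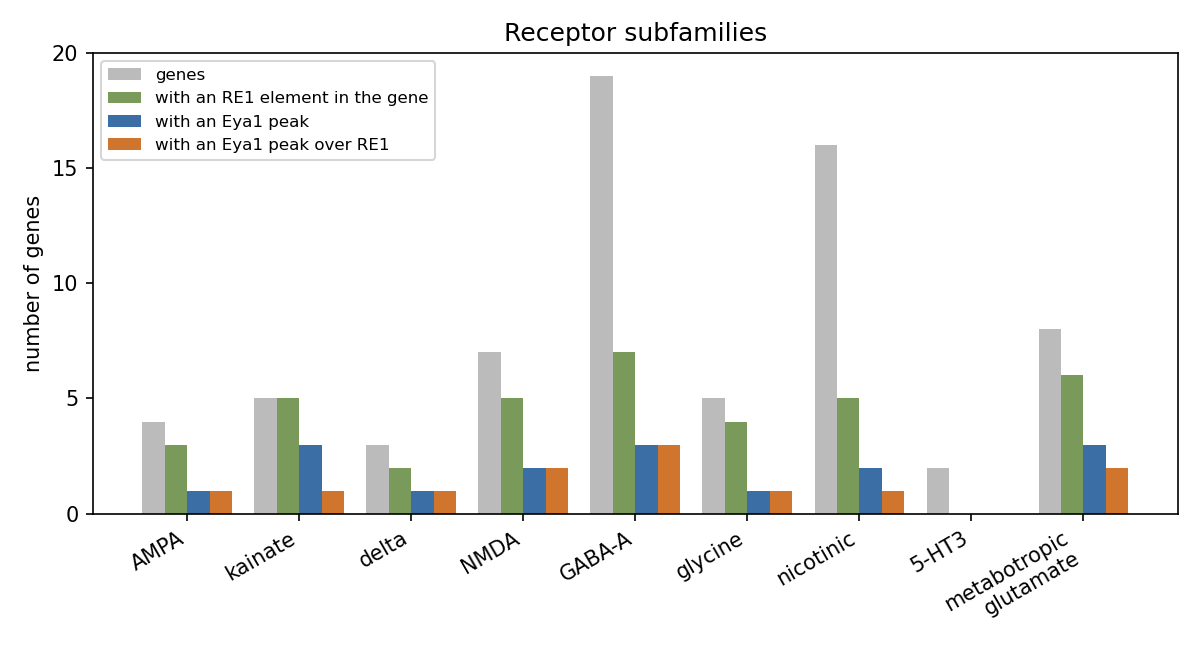
Number of genes (y axis) in each receptor subfamily (x axis), with the number that hold an RE1 element of at most 1 mismatch in the gene, an Eya1 peak, and an Eya1 peak over RE1. Kainate genes all held such an element (5 of 5) and 1 had a peak over it, while 3 of the 19 GABA-A genes had a peak and all 3 merged intervals covered RE1.

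Among glutamate-gated channels, Grin1 encodes the obligatory subunit of NMDA receptors. Replicate 1 listed chr2:25318248-25319403 (1156 bp) and replicate 2 listed chr2:25318910-25319132 (223 bp), both over the TSS. The RE1 element lay in UTR exon sequence at chr2:25319018-25319034, 69 bp downstream of the TSS. It was 200 bp from the midpoint of the wide replicate 1 peak and 5 bp from that of the replicate 2 peak.

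Gria2 encodes the AMPA receptor subunit that limits calcium entry. A peak of 161 bp was listed in replicate 2 only (chr3:80802937-80803097), just upstream of the gene. The element at chr3:80802989-80803005 was 162 bp upstream of the TSS. A further element of 1 mismatch in the same gene, at 753 bp downstream of a TSS, had no peak in either list.

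Grin2d encodes a modulatory NMDA receptor subunit. Its peak was the exception among the 12, because replicate 1 spanned 1122 bp (chr7:45872776-45873897) at the TSS of the neighbouring gene Kdelr1, and the element (chr7:45873667-45873683) was 338 bp from its midpoint. The replicate 2 peak there (chr7:45873300-45873620) did not reach the element. Without this gene, 11 receptor genes had an element under a peak, and all 11 elements were covered by a replicate 2 peak.

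Grik3 and Grid1 encode a kainate and a delta receptor subunit and had intronic peaks far from their starts, both in replicate 2 only. The Grik3 peak (chr4:125590590-125590770, 181 bp) had its element 100002 bp downstream of the TSS, at chr4:125590694-125590710. The Grid1 peak (chr14:34867395-34867532, 138 bp) had its element 47344 bp downstream of a TSS, at chr14:34867444-34867460.

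Among chloride channels, Gabrd encodes the delta subunit of GABA-A receptors outside synapses. Its peaks were at chr4:155397385-155398188 (804 bp) in replicate 1 and chr4:155397638-155397779 (142 bp) in replicate 2, with the element in noncoding exon sequence at chr4:155397680-155397696, 348 bp downstream of the TSS.

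Glra1 encodes the alpha subunit of the adult glycine receptor. Both lists had a peak over its TSS, of 1282 bp in replicate 1 (chr11:55607264-55608545) and 313 bp in replicate 2 (chr11:55607773-55608085). The element at chr11:55607937-55607953 lay in UTR exon sequence, 124 bp upstream of the nearest TSS.

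Chrnb2 encodes the beta subunit of the commonest nicotinic receptor of the brain. Replicate 1 listed chr3:89764322-89764959 (638 bp) and replicate 2 listed chr3:89764382-89764587 (206 bp). The element (chr3:89764458-89764474) was in UTR exon sequence 142 bp downstream of the TSS, 175 bp from the replicate 1 midpoint and 19 bp from the replicate 2 midpoint.

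Among metabotropic receptors, Grm4 lowers cyclic AMP at presynaptic terminals. It had an intronic peak in both lists, at chr17:27466714-27466947 (234 bp) and chr17:27466743-27466929 (187 bp). Its element (chr17:27466831-27466847) was 6228 bp downstream of a TSS and the closest of all to the midpoints, at 8 bp and 3 bp.

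**Figure D3:**
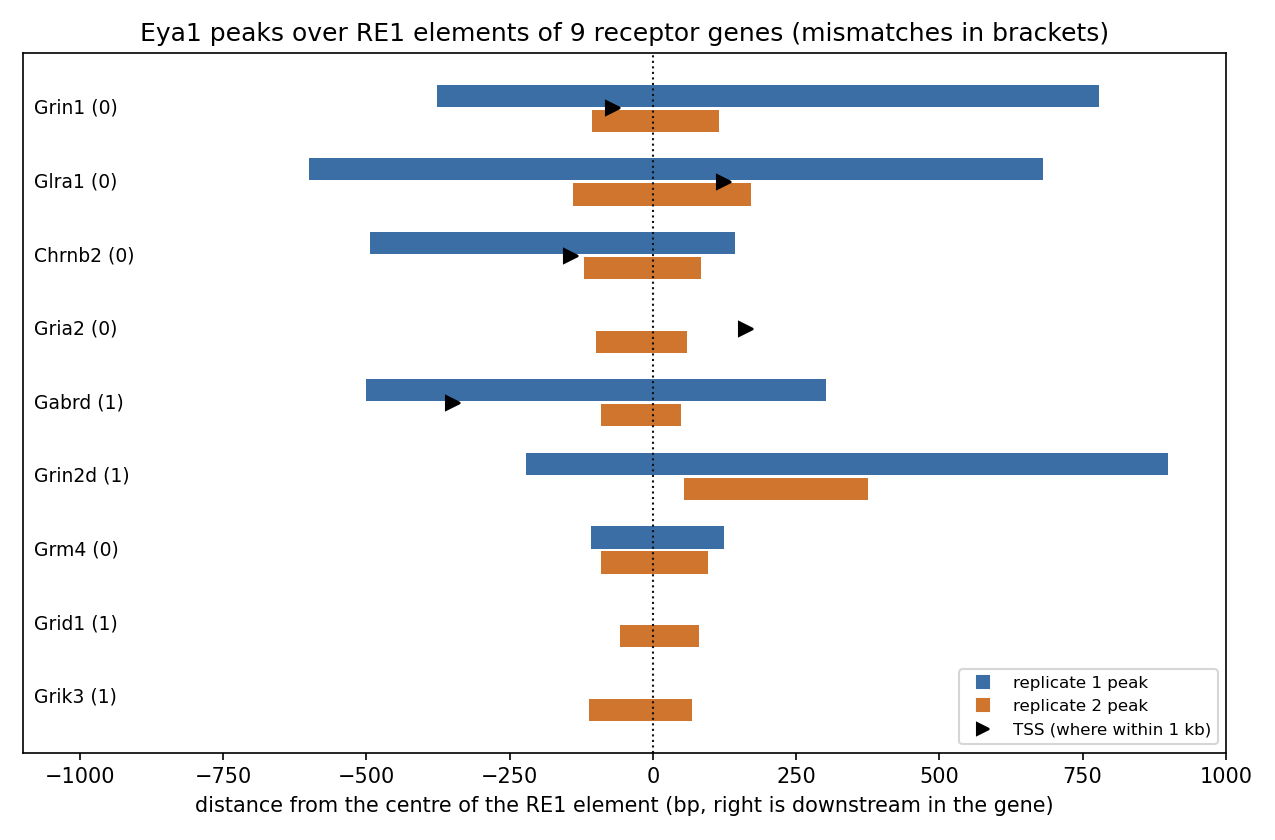
Replicate 1 (blue) and replicate 2 (orange) peaks of 9 receptor genes, drawn to scale by distance in bp (x axis) from the centre of the RE1 element at 0, in the direction of the gene. Arrowheads mark a TSS within 1 kb and brackets give mismatches. Each replicate 2 peak spans 0 except at Grin2d, and the replicate 1 peaks are wider and less centred.

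In replicate 2, the 11 elements of receptor genes lay at a median of 16 bp from the peak midpoint (range 3 to 31 bp). For the 304 elements of at most 1 mismatch under replicate 2 peaks at other protein-coding genes the median was 12 bp, and 79.3% lay within 31 bp. In replicate 1, 6 receptor elements were covered, at a median of 137 bp (range 8 to 338 bp), compared with 116 bp for 183 elements at other genes. The placement at receptor genes was thus near that of other genes in each list.

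Of the 16 occupied receptor genes, 4 had no RE1 in the peak. Grm2, a presynaptic receptor that lowers cyclic AMP, had a peak in both lists upstream of the gene (chr9:106656199-106656526, 328 bp, and chr9:106656243-106656437, 195 bp). Chrna3, the alpha subunit of ganglionic nicotinic receptors, had a peak of 135 bp in replicate 2 only (chr9:55026312-55026446). These peaks were searched for a split element, in which the left 9 and the right 6 positions of the consensus stand in the usual order on the same strand but 3 to 20 bp apart instead of adjoining over 2 free positions. Each portion could have 1 mismatch. Each of these peaks held such a pair, shown with the left and right portions in capitals and the gap in lower case.
Grm2: TTCAGCACCacactgtGGACAG
Chrna3: ATCAGCACCagcatcagcatGGACAG
At Grm2 (chr9:106656330-106656351) neither portion had a mismatch, the gap was 7 bp, and the centre was 1 bp from the replicate 2 midpoint and 22 bp from the replicate 1 midpoint. At Chrna3 (chr9:55026342-55026367) the left portion had 1 mismatch, the gap was 11 bp, and the centre was 24 bp from the midpoint. With 1 mismatch allowed in each portion such pairs were common, at 40.2% of all merged intervals without RE1, compared with 2 of 4 at receptor genes. In 200-bp windows they were in 9.45% of all and in 3 of 8 at receptor genes (Chrna3, Grm2 and Grin2d). Under limits set after these pairs were seen, a pair with 0 mismatches was present in 28 of 4848 windows (0.578%) and a pair with at most 1 in 2.91%. The other 2 genes encode kainate receptor subunits and had no split pair. Grik5 had a peak in both lists (chr7:25072083-25073448, 1366 bp, and chr7:25072687-25072839, 153 bp), where a TSS of Zfp574 also lay within 1 kb. Grik4 had an intronic peak of 150 bp in replicate 2 only (chr9:42652842-42652991).

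The sequence of the genes was then compared irrespective of peaks. The spans of the 69 genes, with 1 kb around each TSS, held 13 elements of 0 mismatches in 11 genes. This was 15.9% of the receptor genes, compared with 1.61% of all protein-coding genes, 3.84% of the same length deciles and 5.83% of the 100 nearest in length. With at most 1 mismatch there were 80 elements in 37 genes (53.6%), compared with 19.8% of all protein-coding genes. The length deciles gave 38.8% and the 100 nearest in length 44.3%. Per 100 kb, receptor genes held 0.0981 elements of 0 mismatches against 0.0347 in all protein-coding genes, while with at most 1 mismatch the numbers were alike at 0.603 and 0.616.

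Of the 13 elements with 0 mismatches, 6 lay under a merged peak (46.2%, 95% interval 19.2 to 74.9%), compared with 33.4% of 371 such elements in all protein-coding genes. Of the 67 with 1 mismatch, 6 did (8.96%, 95% interval 3.36 to 18.5%), compared with 3.64% of 6070. Of the 874 with 2 mismatches, 0 did (upper 95% bound 0.421%), compared with 0.835%. Of all 80 elements of at most 1 mismatch 12 were occupied (15.0%), compared with 5.36%. Without replicate 2, 6 of the 80 were occupied. By gene, 6 of the 11 with an element of 0 mismatches had it under a peak (54.5%, compared with 34.8% of 353), and 12 of the 37 with an element of at most 1 mismatch (32.4%, compared with 6.94% of 4336).

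An element of at most 1 mismatch was present but without a peak in 23 receptor genes that had no peak at all. They included Gria1, Gria4, Grik1, Grik2, Grin2a, Grin2b, Grin3a, Gabra2, Gabra3, Gabrb1, Gabrg3, Glra2, Glra3, Glra4, Chrna2, Chrna7, Chrnb3, Chrnb4, Grm3, Grm5, Grm7 and Grm8. Of these, Grm7 and Gria4 held 4 such elements each, and Glra3, Grin2a, Gabrb1 and Grm8 held 3 each. Of all 68 elements without a peak, 63 were intronic. The share of all protein-coding genes with an element but no peak was not counted, nor was that of intronic elements. These counts are therefore not read as traits of receptor genes.

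Elements of 0 mismatches without a peak are shown for comparison with the occupied ones, with the same use of capitals, for the 6 that were nearest to a TSS of their gene. Where a gene has several, brackets give the distance from that TSS, with a plus sign for downstream.
Glra3: aggagcTTCAGCACCTCAGACAGctcccg
Grin3a (+1515 bp): ttaaggTTCAGAACCGTGGACAGtgatca
Grm5: aacttcTTCAGCACCTTGGACAGgtactc
Grin3a (-10459 bp): gaaggcTTTAGAGCCAGGGACAGagaaca
Grik3 (+12371 bp): actgtgTTCAGCACCACGGAGAGcggcct
Grik3 (+28371 bp): ttgtagTTCAGAACCATGGACAGtgtctt
Glra3, a glycine receptor subunit, held an element in UTR exon sequence 263 bp downstream of its TSS (chr8:55940764-55940780) with no peak in either list, whereas Glra1 was occupied in both. At Grin3a, an NMDA receptor subunit, the elements at chr4:49844026-49844042 and chr4:49729701-49729717 were both intronic. The element of Grm5, which encodes a metabotropic receptor, was intronic at chr7:87588156-87588172. Grik3 held 2 intronic elements of 0 mismatches, at chr4:125503063-125503079 and chr4:125519063-125519079, and neither had a peak, while its element of 1 mismatch farther into the gene did. Thus the number of mismatches did not by itself order the elements of Grik3 by occupancy.

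The bases that follow the 17 searched positions differed between occupied and unoccupied elements, a feature that was singled out after these sequences were seen. The search covered 17 positions only, and whether RE1 extends over the next bases was not examined. These bases are therefore not read as a feature separate from RE1. All 12 occupied elements had C at position 18, and 24 of the 80 elements had it. At other protein-coding genes 211 of 333 occupied elements had it, and 13.2% of elements with C there were occupied against 2.56% of those without it. The dinucleotide CG at positions 18 and 19 was present in 10 elements, of which 9 were occupied (90.0%), and in the absence of CG 3 of 70 were occupied (4.29%). The occupied elements without CG were those of Grin1, Grin2d and Grik3, and the unoccupied element with CG was the Grik3 element at 12371 bp. At other protein-coding genes, which were not used to single out the feature, 82 of 171 elements with CG were occupied (48.0%) and 251 of 6190 without it (4.05%). Position 6, also singled out from these sequences and A or C in the consensus, was C in 11 of the 12 occupied elements and in 28 of all 80. At other protein-coding genes 11.6% of elements with C at position 6 were occupied and 2.31% of those without it.

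Proximity to a TSS moved with occupancy as well. Within 1 kb of any annotated TSS, 9 of 13 receptor elements were occupied, compared with 145 of 957 (15.2%) at other genes. At 1 to 10 kb 1 of 17 was occupied and beyond 10 kb 2 of 50, compared with 2.96% and 3.92% at other genes. All 7 receptor elements with CG within 1 kb of a TSS were occupied, as were 2 of the 3 with CG farther away. At other genes the pattern was weaker, at 42 of 62 (67.7%) and 40 of 109 (36.7%). Without CG, 2 of 6 receptor elements were occupied within 1 kb and 1 of 64 beyond it, compared with 103 of 895 (11.5%) and 148 of 5295 (2.8%) at other genes. The separate part of each feature was not tested.

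**Figure D4:**
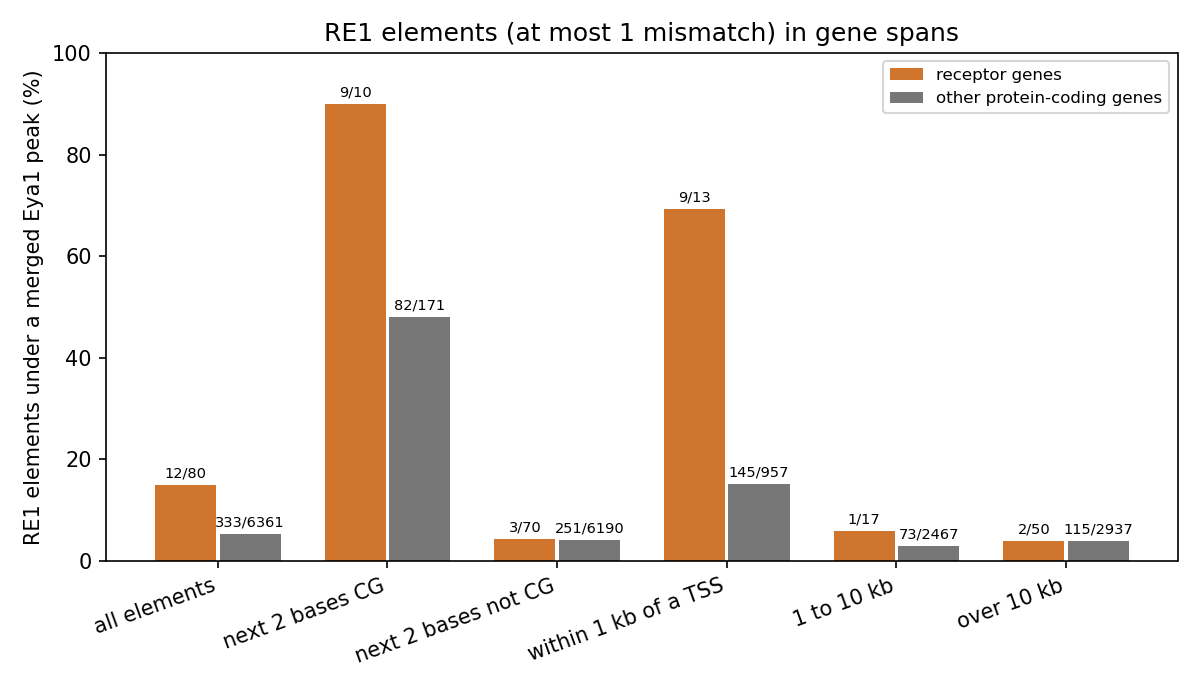
Share of RE1 elements of at most 1 mismatch that lie under a merged Eya1 peak (y axis, %), by the 2 bases that follow the element and by distance to any annotated TSS (x axis). Bars are elements of the 69 receptor genes and of the other protein-coding genes, with occupied over all elements printed above. Elements followed by CG stand highest in both (90.0% and 48.0%).

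The replicates listed different sets of receptor genes. Replicate 2 had a peak at all 16 genes (23.2%), compared with 16.1% of all protein-coding genes and 20.6% of the same length deciles. Replicate 1 had a peak at 8 (11.6%), compared with 21.1%. Near a TSS, replicate 1 had peaks at 6 (8.7%, compared with 20.3%), replicate 2 at 11 (15.9%, compared with 14.8%) and both at 6 (8.7%, compared with 11.4%). In the gene body the counts were 2 (2.9%, compared with 1.07%), 5 (7.25%, compared with 1.46%) and 2 (2.9%, compared with 0.693%). Replicate 2 thus held every receptor gene of replicate 1. The 8 genes occupied in both lists were Grin1, Grin2d, Gabrd, Glra1, Chrnb2, Grik5, Grm2 and Grm4, a share of 11.6%, compared with 12.1% of all protein-coding genes. The 8 genes in replicate 2 only included Gria2, Grik3, Grik4, Grid1 and Chrna3, a share of 11.6% (95% interval 5.14 to 21.6%) compared with 3.82% of all and 5.47% of the same length deciles, the second of which lay within the interval. Peaks in replicate 1 only were found at 0 receptor genes (upper 95% bound 5.21%), compared with 8.78% of all and 10.4% of the same length deciles. Among all 69 receptor genes, 5 had a TSS peak in replicate 2 only (7.25%, compared with 3.22%), and 0 had a TSS peak in replicate 1 only (compared with 8.67%). Over all protein-coding genes, 315 of the 345 occupied elements of at most 1 mismatch lay under a replicate 2 peak and 189 under a replicate 1 peak, and at receptor genes 11 and 6 of 12. The replicate 2 peaks of receptor genes were of ordinary width for that list, with a median of 183.5 bp against 188 bp. The sequence around the annotated 5′ end (500 bp on each side) had a median GC content of 60.6% (range 56.4 to 67.3%) in the 6 genes with a TSS peak in both lists and 47.6% (range 44.7 to 59.4%) in the 5 with a TSS peak in replicate 2 only. The ranges overlapped, and the 58 genes with no TSS peak spanned both, at 38.7 to 76.7%. The part of base composition in the replicate difference was not tested.

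The remaining genes had no peak and no element of at most 1 mismatch. These 30 genes included 10 of the nicotinic genes (Chrna1, Chrna4, Chrna5, Chrna6, Chrna9, Chrna10, Chrnb1, Chrnd, Chrne and Chrng), among which are the muscle receptor subunits, and 12 of the GABA-A genes (among them Gabra4, Gabra5, Gabra6, Gabrb2, Gabre, Gabrg1, Gabrp, Gabrq, Gabrr1, Gabrr2 and Gabrr3). The others included Gria3, Grin2c, Grin3b, Glrb, Htr3a, Htr3b and Grm6. The share of all protein-coding genes with neither a peak nor such an element was not counted, so the 30 are not read as a trait. All 6 receptor genes on chromosome X were without a peak. The share of all X-linked protein-coding genes with a peak was not counted, so this is not read as a trait of receptor genes. On the autosomes, 16 of 63 receptor genes had one (25.4%), compared with 26.1% of all autosomal protein-coding genes. Within 10 kb outside the genes, merged intervals were found near Chrnb2, Grik5, Chrnb4 and Grin3b, none with RE1 and each within 1 kb of a TSS of another gene. The one near Chrnb4 was the Chrna3 peak.

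Genes that act with these receptors were taken as a list of 50, comprising scaffold and auxiliary proteins, synaptic adhesion molecules, enzymes and transporters of the transmitters, and G protein-coupled GABA and serotonin receptors. The list was chosen with earlier results of these data known. Of the 50 genes, 19 had a peak (38%), compared with 31.2% of genes in the same length deciles and 24.9% of all protein-coding genes. A peak with RE1 was present at 11 (22%), compared with 6.01% of the same length deciles and 4.33% of all. With at most 1 mismatch there were 7 (14%), compared with 2.3% and 1.4%. The element had 0 mismatches at Cacng2, an auxiliary subunit of AMPA receptors, at Gad1, which makes GABA, at the postsynaptic scaffold Shank2 and at the serotonin receptor gene Htr1a. It had 1 mismatch at the scaffold Shank1 and at the transporter genes Slc17a6 (glutamate) and Slc6a5 (glycine). The peaks at Cacng3, Gphn, Nrxn2 and Shank3 held matches with 2 mismatches. Cacng2 had 2 peaks with RE1, of 658 bp at its TSS and of 298 bp 53229 bp away, both in both lists. The RE1 peaks of Gad1, Slc17a6 and Cacng3 were also in both lists. Those of Htr1a, Shank1, Shank2 and Slc6a5 were in replicate 2 only, and those of Gphn and Shank3 in replicate 1 only. Nrxn2 had a peak in both lists and another in replicate 2 only.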

How the data were processed

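Eya1 occupancy in E13.5 kidneys was mapped with 2 ChIP-seq replicates. A further 2 samples, input and IgG, had no list that was used here. The authors aligned reads to mm10 with Bowtie and called peaks with MACS at various cutoffs against input or IgG. They analysed the peaks common to both calls. The deposited files hold other values than counts or scores, namely the chromosome, start and end of each peak in 3 columns. The cutoff and control of each list are not given in the sources used here. Coordinates are printed 1-based. Groups and replicate numbers come from the sample titles.

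Gene models were from GENCODE M21 and sequence from the GRCm38 reference (the assembly of mm10). Every peak on the nuclear chromosomes lay within its chromosome length. A peak was near a TSS when it lay within 1 kb of any annotated transcript start of the gene, and in the gene body when it overlapped the gene span otherwise. The 17-bp RE1 consensus was searched in 200 bp around each interval midpoint, or in the whole interval where stated (up to 2 mismatches), and in gene spans (up to 1). Shares have exact Clopper-Pearson 95% intervals. Length backgrounds are means over deciles of gene length and, added after seeing the data, over the 100 nearest genes. No test was run.

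The members and gene lists were chosen with earlier results of these data known. Named genes are all members with a peak, with an RE1 element, or with neither, and partner genes with RE1 under a peak. Some members enter the counts, but their own values are not reported here. The RE1 search and the merging of peaks were tested on simulated data. Python 3.11.15, numpy 2.4.6, pandas 2.3.3, scipy 1.17.1 and matplotlib 3.10.9 were used.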

Additional observations from a re-analysis of the deposited data

How the results depend on the processing

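No paired analysis was possible because no result comes from a test and 1 group alone has peaks to compare. Of 39 alternative values for 7 results, 27 stayed within 1.5 times the reported count and 12 did not. Leaving out 1 replicate at a time gave 6 to 11 genes with a TSS peak, 2 to 5 with a gene-body peak, 8 to 16 with any peak, 2 to 11 with RE1 in the 200-bp window and 6 to 11 elements under a peak. The lower number is without replicate 2 in each case. Whole peaks of 1 replicate, a setting added once the data had been seen, gave 6 genes with RE1 in replicate 1 and 11 in replicate 2. With 500 bp to a TSS in place of 1 kb, 8 genes had a gene-body peak, and with gene ends extended by 10 kb, 9 did, through peaks at the TSS of other genes or of the neighbouring receptor gene. With 0 mismatches, 4 genes had RE1 in the 200-bp window, 6 elements lay under a peak and the genes held 13 elements, and with at most 2 mismatches they held 954. With 50% of both peaks covered, 2 genes were shared, replicate 1 peaks being wider. The lists hold no depth, so precision beyond counting error over genes is unknown.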
